A study of Mus musculus with 12 samples.

Results

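The synaptonemal complex and chromosome axis genes described here are Sycp1, Sycp2, Sycp3, Syce1, Syce2, Syce3, Tex12, Hormad1 and Hormad2. They were taken by symbol from the gene rows of the RNA-seq tables of an ORF1p co-immunoprecipitation, where all 9 were found among 20985 genes. ORF1p is the RNA-binding protein encoded by the LINE-1 (L1) retrotransposon. All 12 libraries came from testes of Mael-/- mice of the C57BL/6 strain at about 3 months of age, and no library of another genotype was part of the comparison. Mael-/- mice lack Maelstrom, a protein of the piRNA pathway that silences retrotransposons, and their germ cells arrest in meiosis. TOTAL was RNA of the clarified testis extract with EDTA at 10 mM, which takes ribosomes apart. INPUT was RNA of pooled sucrose gradient fractions 5 to 8 of that extract. IP was RNA pulled from INPUT with a rabbit monoclonal antibody against ORF1p, and BO (beads only) was RNA that stayed on beads without antibody. Each group had 3 libraries, and the sources do not say whether these came from separate animals. The question was which transcripts of the meiotic chromosome axis were found with ORF1p in these EDTA-resistant particles, and how they compared with the extract, the fractions and the bare beads.

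During meiotic prophase each chromosome is organized along a protein axis, and the synaptonemal complex zips the axes of homologous chromosomes together. SYCP2 and SYCP3 build the axial (later lateral) elements, SYCP1 forms the transverse filaments that bridge them, and SYCE1, SYCE2, SYCE3 and TEX12 form the central element. HORMAD1 and HORMAD2 are HORMA-domain proteins that mark axes that have not yet synapsed. All of these proteins act in the nucleus of spermatocytes and oocytes. The measurements here are of their RNA.

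The tables gave the mean normalized read count of each group, normalized separately for IP with BO, IP with INPUT and IP with TOTAL. Because the same 3 IP libraries stand in all 3 tables under different scale factors, the whole reads of each IP library could be solved for 99.9791% of the 19155 genes with reads in IP, the 9 genes among them. The IP libraries held 27937462, 25249567 and 26086108 reads on genes, and they are numbered 1, 2 and 3 in that order, which need not be their replicate numbers. For BO, INPUT and TOTAL only the authors' means are given per gene, and the results of the authors' own tests in these tables were not used, so no test between groups was run here. Each ratio of the 9 genes to another group is set beside the range of the single IP libraries. A 95% exact interval that covers counting error only is added for Sycp1 and Syce3, the genes with the most and the fewest reads. Mael, the deleted gene, had 0 reads in all 3 IP libraries and authors' means of 0.502 in BO, 0 in INPUT and 0.65 in TOTAL. A level in TOTAL reflects both how many cells held a transcript and how much each cell held, which cannot be told apart in whole testis RNA. The other groups were taken from that extract.

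In IP, all 9 genes exceeded their BO and INPUT levels by over 2-fold, and 7 of 9 exceeded their TOTAL level by over 2-fold. All 9 had a mean of at least 10 in each table, taken over the means of both groups. Of the genes that reached this mean, the ratio was over 2-fold for 43.9% of 13638 genes against BO, 20.5% of 14404 genes against INPUT and 20.4% of 14670 genes against TOTAL. On the log2 scale of the mean plus 1, the median of the 9 genes was 3.55 above BO, 2.07 above INPUT and 2.09 above TOTAL. The median over all these genes was 0.81, 0.15 and -0.03. The exceptions against TOTAL were Syce2 and Syce3, both of the central element. The 3 comparisons share the IP libraries, so they are not independent of each other. After centering on the median gene, the share of genes over 2-fold higher was 18.4% against BO, 16.5% against INPUT and 21.1% against TOTAL, and the 9 genes gave the same counts of 9, 9 and 7.

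**Figure D1:**
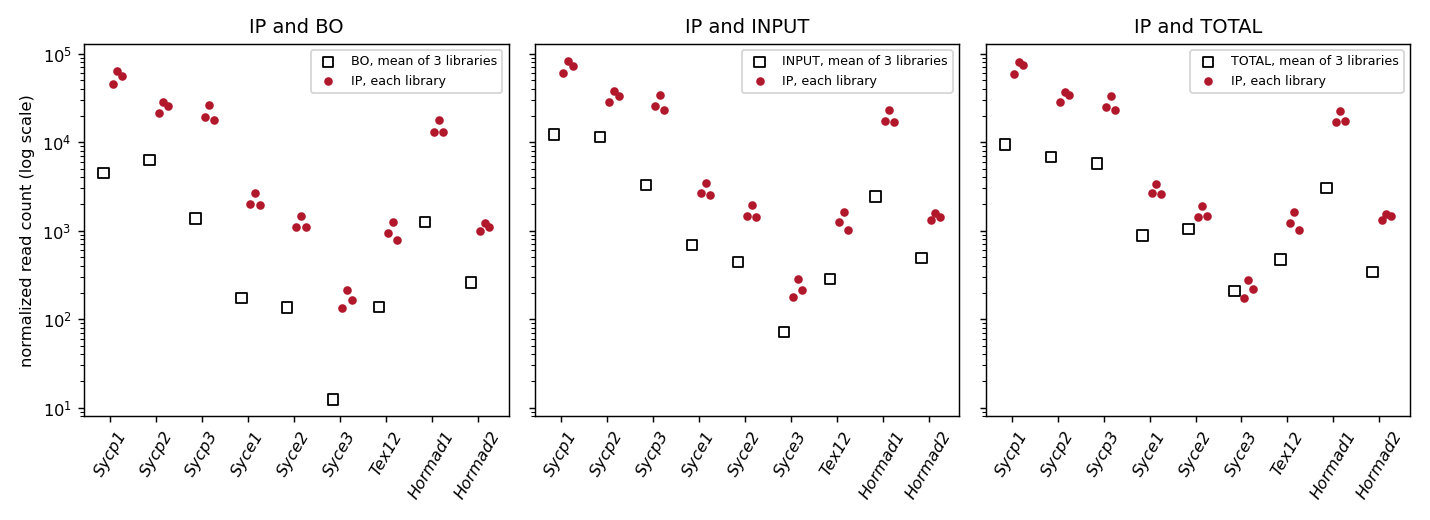
Normalized read count (log scale) of each gene in the table of IP with BO, with INPUT and with TOTAL. Open squares are the authors' means over 3 libraries and filled points the 3 IP libraries; all IP points lie above the square except library 1 for Syce3 beside TOTAL (173 against 208).

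**Figure D2:**
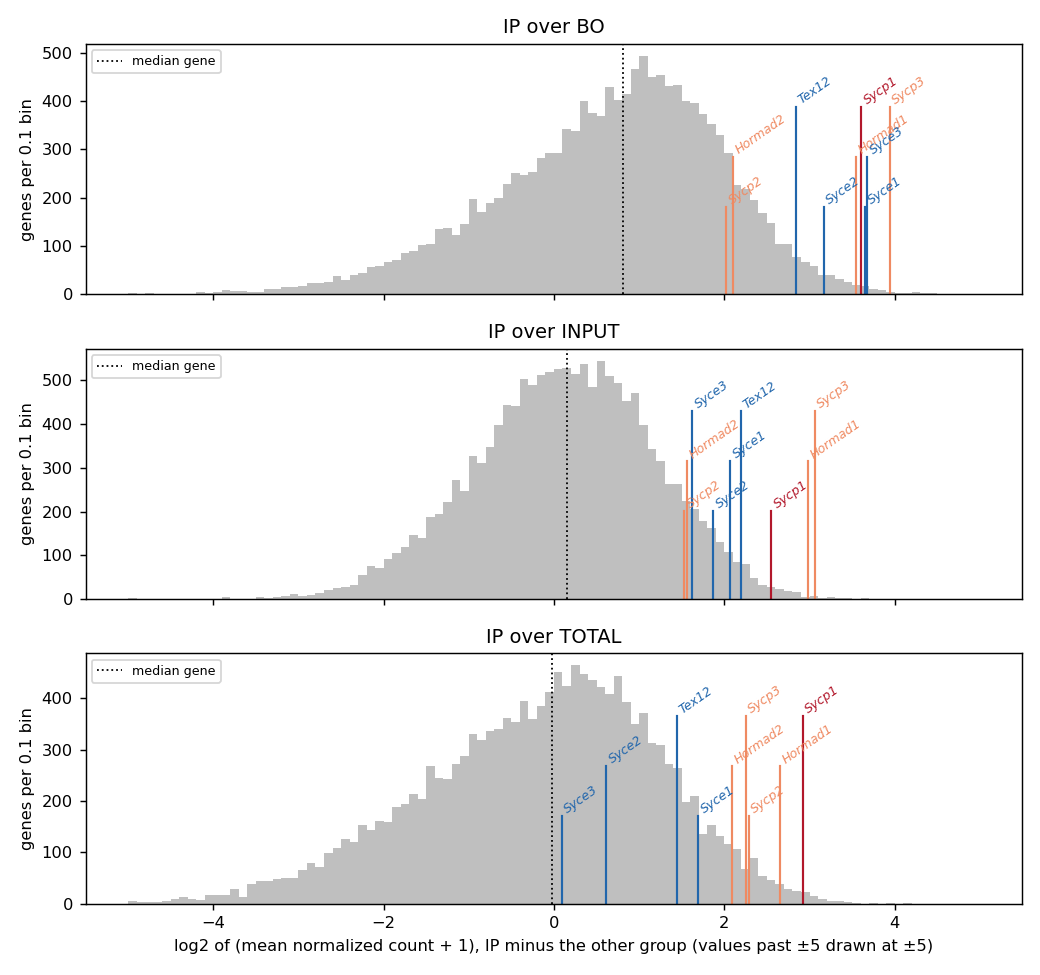
Histogram of the log2 ratio of IP over BO, INPUT and TOTAL for all genes with a mean of at least 10 (bins of 0.1; dotted line, median gene), with the 9 genes marked in red (Sycp1), orange (Sycp2, Sycp3, Hormad1 and Hormad2) and blue (central element). The 9 genes lie above the median gene in each panel, and Syce3 and Syce2 are lowest beside TOTAL at 0.09 and 0.61.

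Sycp1 encodes the transverse filament protein and lies at chr3:102818499-102936100 on the minus strand (GRCm38, the same build as mm10). Its longest transcript has 33 exons and 3437 nt. Its authors' mean in TOTAL was 9433 normalized counts, and the IP libraries on the same scale held 58973, 81279.5 and 74408 (71553 ± 11424, SD, n = 3). All 3 IP libraries were far above the extract. The ratio was 7.58-fold, or 2.92 on the log2 scale with a counting interval of 2.91 to 2.94 and single IP libraries between 2.64 and 3.11. This exceeded the log2 ratio of 99.6% of the 14670 genes with a mean of at least 10. Against INPUT (12256) the log2 ratio was 2.55 (single libraries 2.29 to 2.76), and against BO (4494) it was 3.61 (3.33 to 3.82). As a share of all reads on genes, scaled so that the genes of a library or group sum to 1000000 (CPM), Sycp1 took 354 CPM in TOTAL and 2380 ± 333 CPM (SD, n = 3) in IP. By this count Sycp1 ranked 149th among genes in TOTAL and 10th in IP.

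Sycp1 also has a processed pseudogene, Sycp1-ps1, at chr7:18786332-18789099 on the plus strand. It aligned to the Sycp1 transcript over 2696 nt with 95.4% identity and 124 mismatches. Their sequences are shown because reads could be exchanged between the pair. The 120 bases shown were chosen as the ungapped coding stretch with the most differences, so they differ more than the whole alignment. In a stretch of 120 bases near the end of the Sycp1 coding sequence (chr3:102819077-102820592, minus strand, across exons) and its copy in the pseudogene (chr7:18788820-18788939, plus strand), the 11 positions that differ are in capitals.
Sycp1: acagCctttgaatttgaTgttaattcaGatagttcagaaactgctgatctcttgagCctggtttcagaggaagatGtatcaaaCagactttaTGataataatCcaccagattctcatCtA
Sycp1-ps1: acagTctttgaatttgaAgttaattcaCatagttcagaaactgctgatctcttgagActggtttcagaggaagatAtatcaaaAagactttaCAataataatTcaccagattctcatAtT
Of 3363 windows of 75 nt, the read length, only 48 (1.43%) were identical in the pair. Sycp1-ps1 had authors' means of 11.5 in BO, 22.6 in INPUT and 21.2 in TOTAL, and 145, 160 and 169 reads in the IP libraries. Its log2 ratios were 3.48, 2.96 and 3.04 in the same order. Its TOTAL mean of 21.2 was small beside the 9433 of Sycp1. How reads with several matches were counted for genes is not given in the sources used here, so reads of the pseudogene and of Sycp1 cannot be fully told apart.

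Sycp3, which encodes a lateral element protein, lies at chr10:88459569-88473236 on the plus strand with 8 exons and 1169 nt in its longest transcript. It had 5739 normalized counts in TOTAL and 24967, 33595 and 23430 in the IP libraries (27331 ± 5479, SD, n = 3). All 3 were above TOTAL, by a log2 ratio of 2.25 (single libraries 2.03 to 2.55). Against BO, where its mean was 1366, Sycp3 had the highest ratio of the 9 genes at 3.94 (3.69 to 4.26). Sycp3 ranked 17th of the 13638 genes with a mean of at least 10 in that comparison. Against INPUT (3293) it was again highest of the 9, at 3.06 (2.80 to 3.38). Exons of Sycp3 share 660 bases with Chpt1, an enzyme gene on the opposite strand, and 46.9% of the 75 nt windows of Sycp3 match Chpt1 in reverse. The libraries were stranded, but the strand setting of the counting is not given in the sources used here. Chpt1 itself had a mean of 1842 in TOTAL and 387 in IP, the opposite direction to Sycp3.

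Sycp2, the SYCP3 partner in the axis, lies at chr2:178345293-178407685 on the minus strand and has 44 exons and 5717 nt. Its mean in TOTAL was 6802, and the IP libraries held 28282, 36680 and 34442 on that scale (33134 ± 4349, SD, n = 3). The log2 ratio was 2.28, with single libraries between 2.06 and 2.43. Its ratios were lowest of the 9 genes against BO (6257), at 2.02 (1.79 to 2.20), and against INPUT (11523), at 1.53 (1.32 to 1.70). For each 1000 normalized counts of Sycp1 there were 1392 of Sycp2 in BO, 940 in INPUT, 721 in TOTAL and 465 ± 14.2 (SD, n = 3) in IP. The IP libraries differed little from each other in this proportion (480, 451 and 463), and the other groups all lay above them. The same order of groups was found for Hormad2, with 57.4 in BO, 40.1 in INPUT, 36.0 in TOTAL and 20.3 ± 1.66 (SD, n = 3) in IP for each 1000 of Sycp1. Syce2 and Tex12 were also lowest in IP by this proportion. For these genes the proportion restates that Sycp1 had the higher ratio of IP in each comparison, so it is no separate observation.

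Hormad1 lies at chr3:95559677-95587671 on the plus strand (16 exons, 1511 nt). It had 3025 in TOTAL and 16852, 22816.5 and 17446 in IP (19038 ± 3286, SD, n = 3), a log2 ratio of 2.65 (2.48 to 2.91 in single libraries). Its log2 ratio was 2.98 (2.81 to 3.26) against INPUT, where its mean was 2426, and 3.55 (3.37 to 3.83) against BO, where it was 1249.5. Of its 1437 windows of 75 nt, 15.2% also occur on the same strand in Gm15529, which has no row of its own in the tables.

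Hormad2 lies at chr11:4345814-4441105 on the minus strand (11 exons, 1969 nt). It had 339 in TOTAL and 1312, 1559 and 1459 in IP (1443 ± 124, SD, n = 3). This is a log2 ratio of 2.09 (single libraries 1.95 to 2.20) to TOTAL. The ratio was 1.56 (1.44 to 1.69) to INPUT, with a mean of 492, and 2.10 (1.96 to 2.24) to BO, with 258. Hormad2 varied least over the IP libraries, with a coefficient of variation of 8.61% on the TOTAL scale, where Tex12 varied most at 23.1%. Between the HORMA-domain genes, Hormad1 had the higher log2 ratio in all 3 comparisons.

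Syce1, of the central element, lies at chr7:140777229-140787852 on the minus strand (13 exons, 1460 nt). It had 887 in TOTAL and 2634, 3385 and 2608 in IP (2876 ± 441, SD, n = 3), a log2 ratio of 1.70 (single libraries 1.55 to 1.93). The ratio was 2.07 (1.89 to 2.33) to INPUT, with a mean of 689, and 3.66 (3.49 to 3.92) to BO, with 174.

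Tex12, the SYCE2 partner, lies at chr9:50556819-50561325 on the minus strand (5 exons, 1003 nt). Its mean in TOTAL was 474, and the IP libraries held 1216, 1612 and 1029.6 (1286 ± 298, SD, n = 3). The log2 ratio was 1.44 (single libraries 1.12 to 1.76). It was 2.19 (1.82 to 2.54) to INPUT, with a mean of 283, and 2.84 (2.49 to 3.19) to BO, with 137.

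Syce2 lies at chr8:84872111-84888221 on the plus strand (5 exons, 1686 nt). It had 1047 in TOTAL and 1446, 1894 and 1459.9 in IP (1600.1 ± 255, SD, n = 3). The log2 ratio was 0.61, under 2-fold, with single libraries between 0.47 and 0.86 and all 3 above TOTAL. Against INPUT (441) it was 1.87 (1.69 to 2.13) and against BO (136) it was 3.17 (3.00 to 3.43), both over 2-fold.

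Syce3, which encodes the smallest of the central element proteins listed here, lies at chr15:89390174-89410503 on the minus strand (3 exons, 480 nt). It had the fewest reads of the 9 genes, with a mean of 208 in TOTAL. The IP libraries held 173, 275 and 218 (222 ± 51.2, SD, n = 3), so they lay on both sides of TOTAL. The log2 ratio was 0.09 with a counting interval of -0.07 to 0.26 and single libraries between -0.27 and 0.40. It became -0.08 when groups were scaled to their summed gene means and -0.09 without IP library 2, so no direction can be given. Against INPUT (71.8) Syce3 had a log2 ratio of 1.62 (single libraries 1.28 to 1.95, counting interval 1.39 to 1.85). Against BO (12.4, from 24 to 51 reads) it was 3.68, with single libraries between 3.31 and 4.01 and a counting interval of 3.09 to 4.33. Among genes with a mean of at least 10, Syce3 thus stood near the top against BO (rank 40 of 13638). It stood near the middle against TOTAL, with 53.5% of 14670 genes below it.

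The steps of the preparation were followed by linking the tables through their common IP means. Since the tables were normalized separately, these log2 ratios carry that limit, although the differences among the 9 genes do not depend on the scale of a table. From TOTAL to INPUT, Sycp2 (0.75), Hormad2 (0.53) and Sycp1 (0.37) were higher in the sucrose fractions. The other 6 genes were lower: Hormad1 at -0.33, Syce1 at -0.37, Tex12 at -0.75, Sycp3 at -0.81, Syce2 at -1.25 and Syce3 at -1.53. The median over 13570 genes was -0.12. From INPUT to BO all 9 genes were lower, between -0.49 for Sycp2 and -2.06 for Syce3, and the median gene was at -0.55. Of the 9, 7 were under that median. Syce2 and Syce3 had the lowest values of the 9 from TOTAL to INPUT, while both were over 2-fold higher in IP than in INPUT. Each linked value is the difference of 2 ratios of IP, so it restates them and is no separate observation. The other genes that were lower in INPUT than in TOTAL were over 2-fold above TOTAL in IP.

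**Figure D3:**
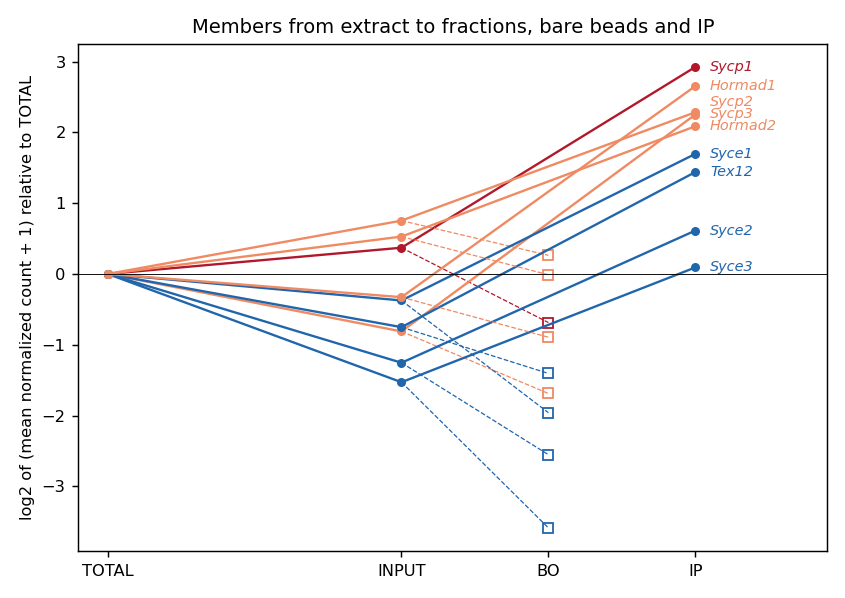
Log2 of the mean normalized count plus 1 relative to TOTAL for each gene in INPUT, BO and IP, with INPUT and BO linked to TOTAL through the IP mean (red, Sycp1; orange, Sycp2, Sycp3, Hormad1 and Hormad2; blue, central element). Solid lines run from TOTAL to INPUT to IP and dashed lines to BO (open squares); INPUT values run from -1.53 (Syce3) to 0.75 (Sycp2) and IP values from 0.09 (Syce3) to 2.92 (Sycp1).

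Together the 9 genes took 1048 CPM in TOTAL, 1344 in INPUT, 595 in BO and 5288 ± 828 (SD, n = 3) in IP. The single IP libraries held 4983, 6225 and 4656 CPM, each over 4 times the TOTAL share. Sycp1, Sycp2, Sycp3 and Hormad1 made up most of this, and they ranked 10th, 41st, 61st and 126th among genes in IP. In TOTAL their ranks were 149, 286, 394 and 1281. IP library 2 had the highest share for each of the 9 genes.

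Per kb of the longest transcript, the order of normalized counts in TOTAL was Sycp3 (4909), Sycp1 (2745), Hormad1 (2002), Sycp2 (1189.9), Syce2 (621), Syce1 (608), Tex12 (472), Syce3 (434) and Hormad2 (172). The spread of the TOTAL libraries is unknown, so whether neighbors in this order differ cannot be judged. In IP the order per kb was Sycp3 (23380 ± 4687), Sycp1 (20819 ± 3324), Hormad1 (12600 ± 2174), Sycp2 (5796 ± 761), Syce1 (1969.7 ± 302), Tex12 (1282 ± 297), Syce2 (949 ± 151), Hormad2 (733 ± 63.1) and Syce3 (462 ± 107; SD, n = 3 for each). The ranges of the single libraries overlapped between Sycp3 and Sycp1 and between Tex12 and Syce2, and between no other neighbors. Compared within the same library, Tex12 was above Syce2 in all 3, and Sycp3 was below Sycp1 in library 3 only. With the median transcript length in place of the longest, Sycp1 (37132) passed Sycp3 (23995) and Sycp2 (19491) passed Hormad1 (13216) in IP, and Syce2 (1983) and Hormad2 (1498) passed Tex12 (1355), so this order depends on which transcript is present.

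Transcript length and base composition were examined as features that the choice of genes did not use. The 9 genes had a median transcript length of 1511 nt, against 4046 nt over the 7702 genes of known length that reached a mean of 100 in every group, and 8 of 9 were shorter than that median. Among the 655 genes of 1 to 2 kb, the median log2 ratio of IP to TOTAL was -0.57 and 9.01% were over 2-fold higher. The 6 members of this length class, Sycp3, Syce1, Syce2, Tex12, Hormad1 and Hormad2, ran from 0.61 to 2.65. In the class under 1 kb, with 54 genes, the median was -2.06 and Syce3 was at 0.09. For 2 to 4 kb it was 0.22 with Sycp1 at 2.92, and from 4 kb it was 0.66 with Sycp2 at 2.28. Each of the 9 genes was therefore above the median of its length class. The step from TOTAL to INPUT followed length more closely, with class medians of -1.62, -0.92, -0.23 and 0.36 from the shortest to the longest. Pearson's r of that step with log2 length was 0.85 over the 9 genes and 0.62 over 7702 genes, as a description over genes measured in the same libraries.

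**Figure D4:**
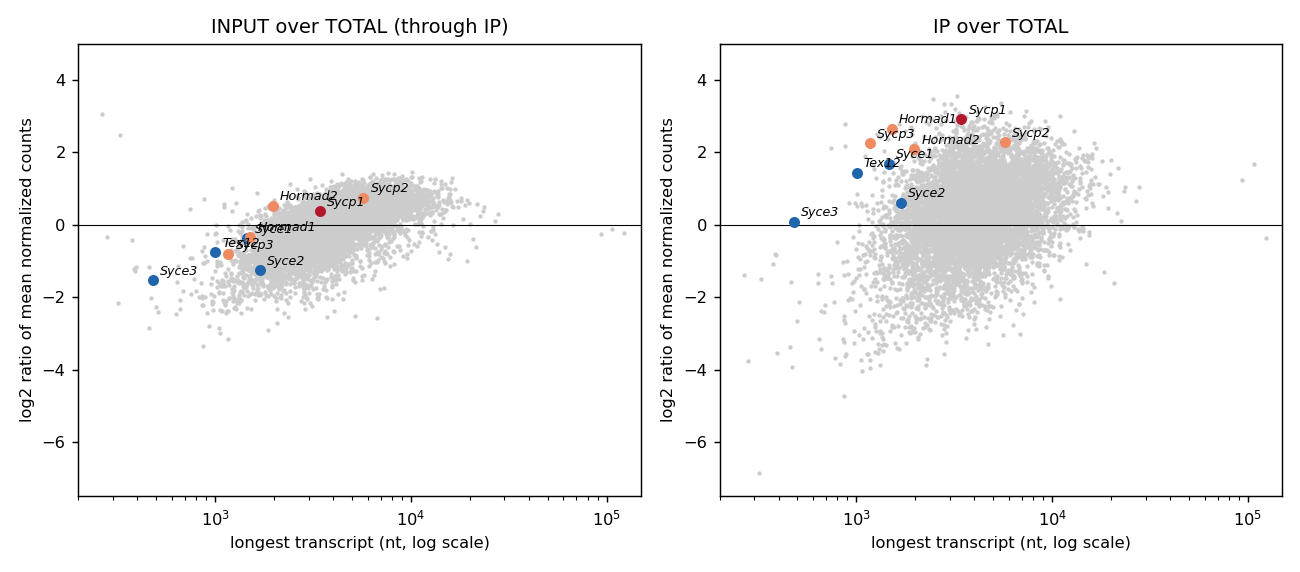
Log2 ratio of INPUT over TOTAL (left, linked through IP) and of IP over TOTAL (right) against the longest transcript in nt (log scale) for 7702 genes (gray) and the 9 genes (red, Sycp1; orange, Sycp2, Sycp3, Hormad1 and Hormad2; blue, central element). Among the 9 genes, in both panels, Syce3 (480 nt) is leftmost, at -1.53 and 0.09, and Sycp2 (5717 nt) rightmost, at 0.75 and 2.28.

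The transcripts of the 9 genes were rich in adenine, with a median of 32.5% A against 25.8% over 7702 genes, and 8 of 9 were above that median. Sycp1 had 41.5% A, Sycp3 and Sycp2 37.1% each, Hormad1 36.3%, Tex12 32.5%, Syce1 29.9%, Syce3 28.8%, Hormad2 28.7% and Syce2 25.0%. Over the 9 genes, Pearson's r of percent A with the log2 ratio of IP to TOTAL was 0.81, and it was 0.21 over 7702 genes. With the ratio to INPUT it was 0.58 and 0.33, and with the ratio to BO 0.15 and -0.08, in the same order. These are descriptions over genes of the same libraries. To show what this composition looks like, the 90 coding bases with the most A are given for a pair of genes with high ratios, Sycp1 and Sycp3, and for the pair with the lowest ratios to TOTAL, Syce2 and Syce3. Runs of at least 3 A are in capitals, and coordinates are of GRCm38 with introns spanned where the stretch crosses exons.
Sycp1 (chr3:102841039-102851593, minus strand): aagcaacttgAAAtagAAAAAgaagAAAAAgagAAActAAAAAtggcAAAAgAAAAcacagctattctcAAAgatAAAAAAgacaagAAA
Sycp3 (chr10:88466465-88466554, plus strand): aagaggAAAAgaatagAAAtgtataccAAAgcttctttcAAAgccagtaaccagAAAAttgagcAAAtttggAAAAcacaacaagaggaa
Syce2 (chr8:84885983-84886072, plus strand): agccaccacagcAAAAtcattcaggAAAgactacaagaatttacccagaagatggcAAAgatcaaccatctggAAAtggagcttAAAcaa
Syce3 (chr15:89397332-89397421, minus strand): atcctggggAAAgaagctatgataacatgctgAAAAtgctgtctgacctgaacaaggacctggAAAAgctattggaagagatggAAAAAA
These stretches held 56 A in Sycp1, 45 in Sycp3, 40 in Syce2 and 36 in Syce3, of 90 bases each. The capitals cover 41, 24, 16 and 17 bases in the same order. The coding sequences searched had 2982, 747, 516 and 267 nt in that order. A longer sequence offers more stretches to choose from, so these highest values are not directly comparable. Over the whole coding sequence the shares of A were 43.3%, 38.8%, 31.4% and 31.8%, so Syce2 was richer in A in its coding part than over its whole transcript.

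Other genes of meiotic prophase were set beside the 9 from lists of partners. Of 13 symbols for synaptonemal complex and axis partners, some of them alternative names, 6 were in the tables. Against BO, INPUT and TOTAL, 4, 6 and 2 of the 6 were over 2-fold higher, with a median of 0.66 against TOTAL. Over all genes with a mean of at least 10, the shares were 43.9%, 20.5% and 20.4%. With so few genes, the counts against BO and TOTAL stand little apart from these shares. Ccdc36 (IHO1, an axis protein needed for double-strand breaks) and 4930447C04Rik (SIX6OS1, a central element protein) had the highest log2 ratios to TOTAL, 2.02 and 1.49. The lowest were Fkbp6 at 0.01 and Skp1a at 0.26.

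Of 11 cohesin genes, 7, 8 and 7 were over 2-fold higher against BO, INPUT and TOTAL, and none was over 2-fold lower. The background shares in this order were 43.9%, 20.5% and 20.4% higher, and 11.2%, 14.6% and 26.2% lower. With 11 genes, the count against BO is not far from its share, and the absence of lower genes carries little weight. The median log2 ratio was 1.79 against TOTAL. The meiotic subunits Rad21l (2.80) and Stag3 (2.67) were highest. Rad21 (-0.88), the kleisin of mitotic cells, and Rec8 (-0.68), a meiotic kleisin, were lowest. Rec8 was at 0.13 against INPUT and 1.39 against BO, so its direction differed between the comparisons.

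Of 20 recombination genes, 18, 17 and 17 were over 2-fold higher, with a median of 2.13 against TOTAL. The shares over all genes with a mean of at least 10 were 43.9%, 20.5% and 20.4%. Msh4 (3.09), of the MutS-gamma complex, and Mcmdc2 (2.99) were highest. The nuclease gene Exo1 (0.52) was lowest. Sun1 (2.10) and Ccdc155 (KASH5, 1.34), which tether telomeres to the nuclear envelope, were the only genes found of 7 telomere attachment symbols, and both were over 2-fold higher against TOTAL.

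Markers of testis cell types were read in the same tables. Of 11 spermatocyte markers listed, 9 were found and 8 had a mean of at least 10, and 6 of these were over 2-fold higher in IP than in TOTAL (median 2.03). The share over all genes with such a mean was 20.4%. Adam3 (-3.18) was lower. The summed normalized counts of the spermatocyte list were 19837 in TOTAL and 86468 in IP, of which Dazl alone made up 13894 and 56592. These sums therefore rest mostly on Dazl and are not a measure of spermatocytes. Over all genes with a mean of at least 10, 26.2% were over 2-fold lower in IP than in TOTAL. All 6 Leydig cell markers were over 2-fold lower (median -2.57; sums 80412 and 15513), as were 5 of 7 Sertoli cell markers (median -1.53; sums 26173 and 6503). Of 7 spermatogonial markers 3 were over 2-fold lower and none higher (median -0.61; sums 8010 and 3837), and of 3 macrophage markers 1 was lower (median -0.96; sums 6130 and 4468), shares that are close to or little above the 26.2% of all genes. Of the spermatid markers, 4 had a mean of at least 10 over both groups. Prm1, Tnp1 and Tnp2 reached it only through TOTAL, with IP means of 0.86, 0.71 and 0.71. Their lower ratios were thus set by this filter and are not read as a result. The summed spermatid list was low, with 347 in TOTAL and 236 in IP, and Spaca1 (log2 ratio 0.01) made up 231 and 233 of these. The protamine and transition protein genes Prm1, Prm2, Tnp1 and Tnp2 each had a mean under 40 in TOTAL. Prm1 and Tnp2 were at 0 in BO. The spermatocyte list thus differed between IP and TOTAL in the same direction as the 9 genes and the somatic lists in the opposite direction, and their part in the result was not tested. Against BO, 7 of the 9 spermatocyte markers found had a mean of at least 10, and these 7 were over 2-fold higher. Spag6 (4.8 in BO and 66.6 in IP) reached that mean through IP alone. Adam3 (log2 ratio 0.16) and Ccna1 (1.14) were under it. The Leydig and Sertoli medians against BO were 0.44 and -0.06. Of all genes with such a mean, 43.9% were over 2-fold higher against BO.

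L1 RNA, which ORF1p binds in cis, was set beside these values. Summed over 6562 loci, L1Md_A had a log2 ratio of 1.85 against BO, 1.70 against INPUT and 1.78 against TOTAL. L1Md_T, summed over 9583 loci, had 1.70, 1.75 and 1.76. All 3 IP libraries were above the other group's sum in each case. Sycp1, Sycp3 and Hormad1 had higher log2 ratios than both subfamilies in all 3 comparisons. Against BO all 9 genes were above both subfamilies. Syce1, Tex12 and Syce2 were above both against INPUT, and Sycp2, Hormad2 and Syce3 below both. Against TOTAL, Sycp2 and Hormad2 were above both, and Syce1, Tex12, Syce2 and Syce3 below both. The L1 sums depend on how reads with several matches were placed, so these ratios do not rank how strongly ORF1p held each RNA. The paper infers a strong preference of ORF1p for the L1 RNA that encodes it. Actb, an mRNA of all cells, was at 0.48, -0.06 and -1.36 in the same order, and Gapdh at 1.95, -0.39 and -2.25.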

How the data were processed

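The 12 RNA-seq libraries were assigned to the groups TOTAL, INPUT, BO and IP by their labels. Per the methods, libraries were made with the TruSeq Stranded Total RNA kit after rRNA depletion and read as 75 nt single ends. Mapping by the authors used STAR 2.6.0c and mm10, and they normalized counts with DESeq2 1.24.0, and the counting tool and gene annotation are not given in the sources used here. The deposited signal is each group's mean normalized count, to 3 decimals, in 3 tables of 802920 rows (20985 genes and 781935 repeat loci). These tables also hold the authors' fold changes, standard errors, statistics and p-values, which were not used, and a table of repeat subfamilies was not used because it lists no genes.

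For each row the IP means of the 3 tables, each a weighted sum of the same 3 libraries' reads, were solved for whole reads. Of 19155 genes with an IP mean above 0, 99.9791% came out whole within 0.001 normalized counts and none was negative. The solving and the ratios were tested on simulated data. The design foresaw a count test if counts per library were found, but BO, INPUT and TOTAL gave only means, so none was run. Reads behind those means lie between bounds set by what 1 read in 1 library adds (0.209 to 0.502). Counting intervals are exact (Clopper-Pearson, 95%), with the fewest reads these bounds allow.

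Ratios are log2 of the mean plus 1 (pseudocount 1), which understates low genes, and background shares use genes with a mean of at least 10. Lengths, exons and sequences came from GENCODE M21 (GRCm38) and matched 19888 of 20985 genes. The 9 genes and all lists were chosen with earlier results of these data known. Named genes are the 9, the checks Mael, Actb and Gapdh, the 2 highest and 2 lowest of each partner list against TOTAL, and the 5 genes nearest the medians of the 9, and 1 gene that this rule names is not reported here. Chpt1, Gm15529, Sycp1-ps1, Adam3 and the spermatid genes were named after their values were seen. Repeat loci have names without coordinates, so loci inside the 9 genes were not analysed here. Alternatives were other pseudocounts, scalings, thresholds, filters, transcript lengths and each IP library left out. Python 3.11.15, numpy 2.4.6, pandas 2.3.3, scipy 1.17.1, Biopython 1.88 and matplotlib 3.10.9 were used.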

Additional observations from a re-analysis of the deposited data

How the results depend on the processing

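No paired analysis was possible because BO, INPUT and TOTAL are given as group means, so a replicate block was not run and no library of these groups could be left out. The median log2 ratio of the 9 genes to BO was 3.08 with a pseudocount of 10, 2.74 centered on the median gene and 2.73 scaled to the upper quartile, against 3.55 as reported. To INPUT it was 1.70 scaled to summed gene means and 1.76 scaled to the upper quartile, against 2.07, and to TOTAL 1.91 scaled to summed gene means, against 2.09. Leaving out each IP library gave medians from 3.38 to 3.63 against BO, 1.92 to 2.15 against INPUT and 2.03 to 2.15 against TOTAL. The counts of genes over 2-fold higher stayed at 9, 9 and 7 under every pseudocount, scaling and left-out IP library. At 1.5-fold they were 9, 9 and 8, and at 3-fold 9, 7 and 6. The shares of all genes at 1.5-fold and 3-fold were not computed, so these counts cannot be set against a background. The sign of the ratio changed for Syce3 against TOTAL, as given with that gene, and centered on the median gene Sycp2 and Hormad2 stood at 0.06 and 0.01 from INPUT to BO. Levels per kb moved by more than the spread of the IP libraries for 9 of 18 values with the median transcript. Depth limits Syce3 most, with 24 to 51 reads behind its BO mean.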

Other observations

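Among 8001 genes with a mean of at least 100 in every group, the 5 whose 3 log2 ratios lay nearest to the medians of the synaptonemal complex and axis genes were Sohlh2, Cenpn, Ap1m1, Rdh11 and Iqcg. Their Euclidean distances were 0.13, 0.14, 0.24, 0.31 and 0.33 on the log2 scale, and only Sohlh2 and Cenpn were within 0.2. Sohlh2, a transcription factor of early germ cells, had log2 ratios of 3.44 to BO, 2.08 to INPUT and 2.02 to TOTAL. Cenpn, a centromere protein gene, had 3.42, 2.01 and 2.06. The 9 genes themselves lay farther from their own medians, between 0.40 for Syce1 and 2.05 for Syce3.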
